A study of Mus musculus with 35 samples.

Results

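The long genes Ptprj, Itpr2, Arpp21, Sox6, Megf10, Pde11a and Sytl2 (7 in all) were followed through 33 lists of chromatin immunoprecipitation peaks from mouse pre-B cell progenitors that grow attached to stromal cells. All peaks whose deposited gene name is one of the 7 were taken: 1509 of 1213505 peaks. The genes were chosen by measured values of these lists: the length carrying acetylated lysine 27 of histone H3 (H3K27ac) or trimethylated lysine 36 (H3K36me3) was much shorter in the IKDN cells. So those losses are given as a description and support nothing else; the rule names no threshold. The WT group (16 lists) comes from wild-type cells and the IKDN group (17 lists) from cells of IKDN CD2 Cre mice, in which a Cre recombinase driven by CD2 sequences goes with a dominant-negative Ikaros that interferes with DNA binding by the Ikaros family. Both groups were stromal-adherent cultures at passages 3 to 8, and the labels give neither strain nor age. Each genotype and target has 1 library, so no difference below has a replicate check, an error or a test.

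Ikaros, with its relative Aiolos, is a zinc finger DNA-binding protein that B cell progenitors need to leave the adherent, self-renewing stage. H3K27ac marks active promoters and enhancers, and H3K4me3 marks promoters that are active or poised. H3K4me1 and H3K4me2 mark enhancers and promoter flanks, and H3K36me3 is laid down behind elongating RNA polymerase II. The polymerase lists, called RNAPII here, are labelled RpIIS5, the form phosphorylated at S5. Total or elongating polymerase was not measured. H3K27me3 is the mark of Polycomb repression and cannot sit on the same lysine as H3K27ac. MED1 is a Mediator subunit that collects at active enhancers.

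The 7 genes have unrelated products. Ptprj is a receptor-type tyrosine phosphatase (CD148) and Itpr2 an inositol trisphosphate receptor that releases calcium from the endoplasmic reticulum. Arpp21 encodes an RNA-binding phosphoprotein and carries the microRNA gene Mir128-2 in an intron. Sox6 is a SoxD transcription factor, Megf10 an engulfment receptor with EGF-like repeats, Pde11a a phosphodiesterase of cyclic AMP and cyclic GMP, and Sytl2 a Rab27 effector in vesicle docking. They share length: from 108.5 kb (Sytl2) to 569.9 kb (Sox6) in the RefSeq annotation of GRCm38, against a median of 17.2 kb over 21887 protein-coding genes, which puts them between percentiles 90.0 and 99.2.

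Start sites stand for the different ends these genes came to. RefSeq (GRCm38.p6) start windows, from 250 bases before to 50 after the start, were read for 5 of the 7 genes. These 5 are all on the minus strand. Megf10 was left out of this reading, and no window was held for Sytl2. The 4 windows shown are examples: peaks of the lists also cover windows of Sox6, Ptprj and Arpp21 that are not shown. Capitals mark GGGAA or TTCCC, the core of Ikaros family motifs, and CAGGTG or CACCTG, an E-box that E2A binds, searched on both strands; these motifs do not overlap here. GGGAA in either orientation is in 62.7% of the 32851 RefSeq windows of this length and CAGGTG in 20.2%, so a match in a window is only a description.
Ptprj, chr2:90580546-90580845, active in both genotypes: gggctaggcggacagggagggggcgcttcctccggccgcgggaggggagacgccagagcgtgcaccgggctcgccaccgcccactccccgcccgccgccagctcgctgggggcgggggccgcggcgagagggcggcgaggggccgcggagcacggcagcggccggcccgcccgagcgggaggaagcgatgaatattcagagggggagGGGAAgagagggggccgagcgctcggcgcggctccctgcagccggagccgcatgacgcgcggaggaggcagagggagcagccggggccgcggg
Itpr2, chr6:146502174-146502473, active in both genotypes: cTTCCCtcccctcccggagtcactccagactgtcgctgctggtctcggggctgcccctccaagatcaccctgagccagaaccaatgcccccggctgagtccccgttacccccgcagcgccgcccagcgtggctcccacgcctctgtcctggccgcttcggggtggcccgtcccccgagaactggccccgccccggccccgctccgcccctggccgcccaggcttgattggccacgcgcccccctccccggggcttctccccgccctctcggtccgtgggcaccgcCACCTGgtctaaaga
Arpp21, chr9:112217302-112217601, H3K4me3 in WT only: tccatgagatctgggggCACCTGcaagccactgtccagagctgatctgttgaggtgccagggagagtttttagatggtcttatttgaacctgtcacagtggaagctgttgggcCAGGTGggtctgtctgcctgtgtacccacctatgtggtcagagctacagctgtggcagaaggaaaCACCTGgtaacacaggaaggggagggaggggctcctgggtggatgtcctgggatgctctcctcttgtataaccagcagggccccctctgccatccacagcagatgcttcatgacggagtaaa
Pde11a, chr2:76338889-76339188, H3K27me3 over it in both, wider in IKDN: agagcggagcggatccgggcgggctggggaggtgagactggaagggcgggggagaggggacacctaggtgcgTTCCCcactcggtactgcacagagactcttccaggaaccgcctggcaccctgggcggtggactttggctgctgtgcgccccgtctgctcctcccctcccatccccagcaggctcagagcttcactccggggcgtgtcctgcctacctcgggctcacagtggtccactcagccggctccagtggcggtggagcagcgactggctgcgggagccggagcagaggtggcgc
The Itpr2 window was overlapped by a WT Ikaros peak, and so was the Arpp21 window, which holds none of the GGGAA letters and 3 E-boxes. The Ptprj window, 79.3% G and C with 42 CG pairs, had no Ikaros peak on it. Medians over all windows were 52.7% and 7 CG pairs.

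These genes were grouped as silenced in IKDN, and the data go against that word for Ptprj and Itpr2 and in part for Arpp21. RNA was not measured. At the 5' start of Ptprj the IKDN cells had H3K4me3 (score 789.4), H3K27ac (443.8) and RNAPII (45.5), and at the start of Itpr2 they had the same 3 marks (260.3, 127.9 and 38.5); a peak score is the authors' own height of a peak in its list. Both genes also had H3K36me3 along their bodies in IKDN. Sytl2 and Pde11a had neither H3K4me3 nor H3K27ac nor RNAPII peaks under their names in IKDN. By coordinates, given below, this held for Sytl2 only.

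H3K27ac, the mark that chose the genes, covered less of each in IKDN. Covered length is the merged length of the peaks that carry a gene's name. In WT and IKDN, in that order, Ptprj had 61.25 and 16.83 kb, Itpr2 60.66 and 14.80 kb, and Sox6 39.30 and 6.51 kb. Arpp21 had 21.50 and 9.09 kb. The shorter domains went to nothing or nearly so: Pde11a 14.95 to 0 kb, Sytl2 12.56 to 0 kb, and Megf10 5.80 to 1.0 kb, where the IKDN remnant lies at -73.6 kb from the start. A gene was called lower or higher where the lengths differed by at least 1000 bp and 1.5 times. By that rule all 7 were lower, and 16.8% of the 15283 genes with an H3K27ac peak were (20.4% of genes of at least 100 kb); since the members were picked for this, nothing is read from the count.

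**Figure D1:**
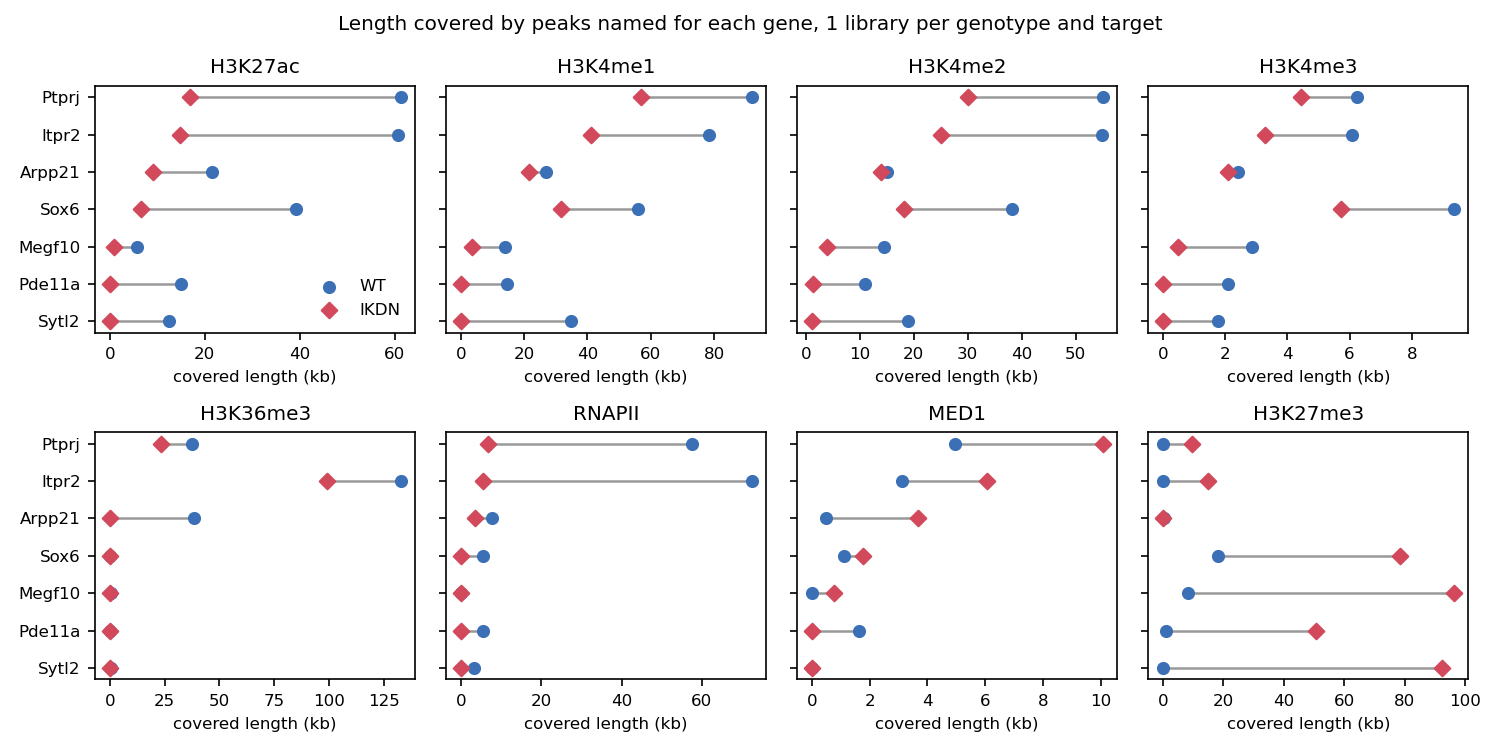
Length covered by peaks named for each of the 7 genes (kb, x axis, a separate scale per panel) in WT (circles) and IKDN (diamonds) for 8 targets, 1 library each. The IKDN point lies left of the WT point for H3K27ac in all 7 genes, and right of it for H3K27me3 in 6, from Ptprj (0 to 9.69 kb) to Megf10 (8.23 to 96.15 kb).

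H3K36me3 separated 3 genes that WT cells carried it on. Itpr2 went from 132.73 to 99.03 kb and Ptprj from 37.38 to 23.19 kb, so most of the mark was still there. Arpp21 had 38.28 kb in 15 peaks in WT and no peak in IKDN. The other genes had at most 0.68 kb in WT. The call was lower at 2 of the 5 genes with a peak, against 10.1% of all genes with one, while 30.4% of all genes were called higher. The rule used this mark too.

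RNAPII was lower at all 6 genes that had an RNAPII peak of their name, where 24.8% of all genes with one were lower (30.9% of genes of at least 100 kb). WT Itpr2 had 52 RNAPII peaks over 72.36 kb and IKDN 5 peaks over 5.63 kb; WT Ptprj had 41 peaks over 57.61 kb and IKDN 5 over 6.75 kb. The median difference was -5.45 kb over the 6 and 0.06 kb over all genes with a peak. What remained at Itpr2 and Ptprj included the start site in each. Arpp21 went from 7.87 to 3.65 kb, Pde11a from 5.48 to 0, Sox6 from 5.42 to 0, and Sytl2 from 3.4 to 0. Megf10 had no RNAPII peak under its name in either genotype. Itpr2 and Ptprj thus showed a change of RNAPII in the body that their H3K36me3 did not show to the same degree. Itpr2 had 7.8% of its WT RNAPII length and 74.6% of its WT H3K36me3 length. RNAPII here is the RpIIS5 form, so other polymerase in the bodies was not measured.

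The methylated forms of lysine 4 went the same way as H3K27ac. H3K4me1 was lower at 6 of 7 (20% of all genes), H3K4me2 at 6 (12.9%) and H3K4me3 at 5 (10.9%). Their median differences were -24.24, -17.77 and -2.08 kb, against -0.03, -0.09 and -0.21 kb over all genes. The labels give IKDN H3K4me3 the antibody number that H3K4me1 also has. The part of that in the H3K4me3 differences, here and below, was not tested. Sytl2 had 34.97 kb of H3K4me1 in WT and none in IKDN, and Pde11a 14.60 kb and none. Arpp21 was the exception for H3K4me1 and H3K4me2, with 26.80 against 21.70 kb and 15.14 against 13.98 kb. So the enhancer-type marks stayed along Arpp21 while its H3K36me3 did not.

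H3K27me3 was the mark that the IKDN cells had more of. It was higher at 6 of 7 genes, where 29.6% of all genes were (39.5% of genes of at least 100 kb). Sytl2 had no H3K27me3 peak in WT and 92.34 kb in IKDN, including a peak of 55.04 kb that ranked 123 of 78176 in its list. Megf10 had 8.23 and 96.15 kb, Sox6 18.36 and 78.37 kb, and Pde11a 1.11 and 50.76 kb. Itpr2, with 0 and 15.06 kb, and Ptprj, with 0 and 9.69 kb, had small islands in IKDN. Arpp21 had 0.50 kb in WT and no peak of that name in IKDN. The median difference, IKDN minus WT, was 49.65 kb over the 7 and -0.45 kb over all genes. That Megf10, Pde11a and Sytl2 stood out here was known from earlier results on these data, so it is no independent support. Of the 2567 genes with H3K27ac called lower, 21.7% had H3K27me3 called higher, 31.1% of the 351 long ones.

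**Figure D2:**
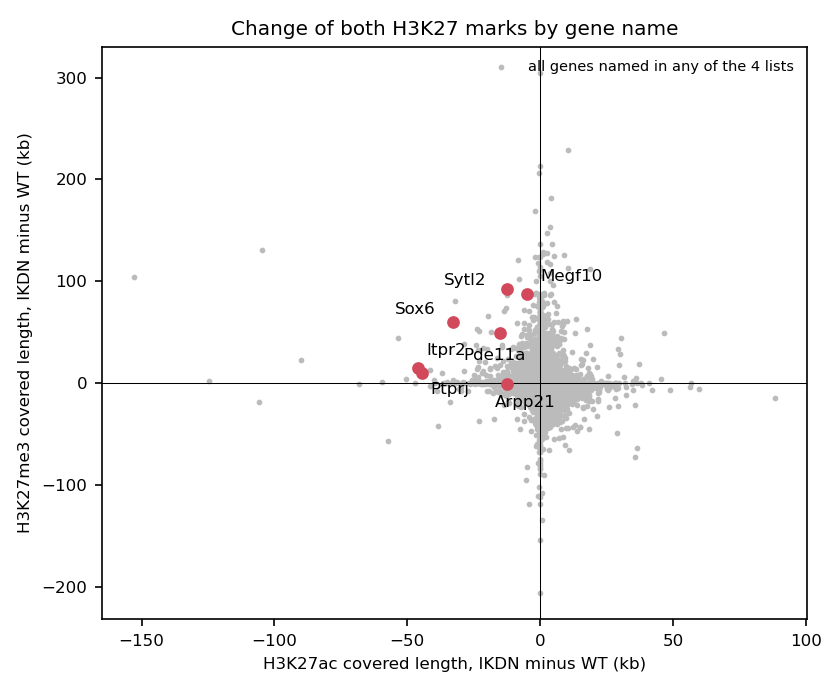
Difference in covered length, IKDN minus WT (kb), of H3K27ac (x axis) and H3K27me3 (y axis) for the 20545 genes named in any of the 4 lists (grey) and the 7 long genes (red, labelled). Sytl2, Megf10, Sox6 and Pde11a lie high on the left side, and Ptprj, Itpr2 and Arpp21 lie near the horizontal zero line.

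Names follow the nearest start site, and that splits long genes. By coordinates (the gene and 10 kb on each side) all 7 were lower for H3K27ac and all 7 higher for H3K27me3, Arpp21 with 1.5 and 3.59 kb. Other calls ended: Itpr2 was not lower for H3K4me1 (75.40 and 55.94 kb) or H3K4me2 (49.88 and 35.27 kb), Ptprj not for H3K36me3 (38.49 and 27.86 kb), and Pde11a not for MED1. Itpr2 also held more IKDN H3K27ac than its name shows, 27.20 kb against 58.25 kb in WT. Calls that began were lower H3K4me3 at Arpp21 and lower H3K36me3, RNAPII and MED1 at Megf10. Peaks in the 3' part of Megf10 carry the name of a neighbour, Prrc1: 4 WT H3K27ac peaks of 28.84 kb in sum, the widest of 20.99 kb, and 5 WT H3K36me3 peaks of 23.82 kb. In IKDN the body of Megf10 had no H3K27ac and no H3K36me3 peak of either name, and 5 H3K27me3 peaks named Prrc1 of 42.87 kb in sum. H3K36me3 by coordinates therefore went from 24.82 kb to 0 at Megf10. The 3' part of Pde11a is named for Ttc30a1, with 36 H3K27me3 peaks in IKDN of 53.86 kb in sum and none in WT. IKDN peaks of that name in Pde11a also included H3K27ac, H3K4me1, H3K4me3, RNAPII and MED1 (1.48, 3.29, 1.04, 1.28 and 0.95 kb). By coordinates Pde11a had IKDN lengths of 3.46 kb for H3K27ac, 6.21 for H3K4me1, 2.51 for H3K4me3 and 1.93 for RNAPII. The WT lengths were 18.79, 21.33, 5.62 and 8.5 kb.

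**Figure D3:**
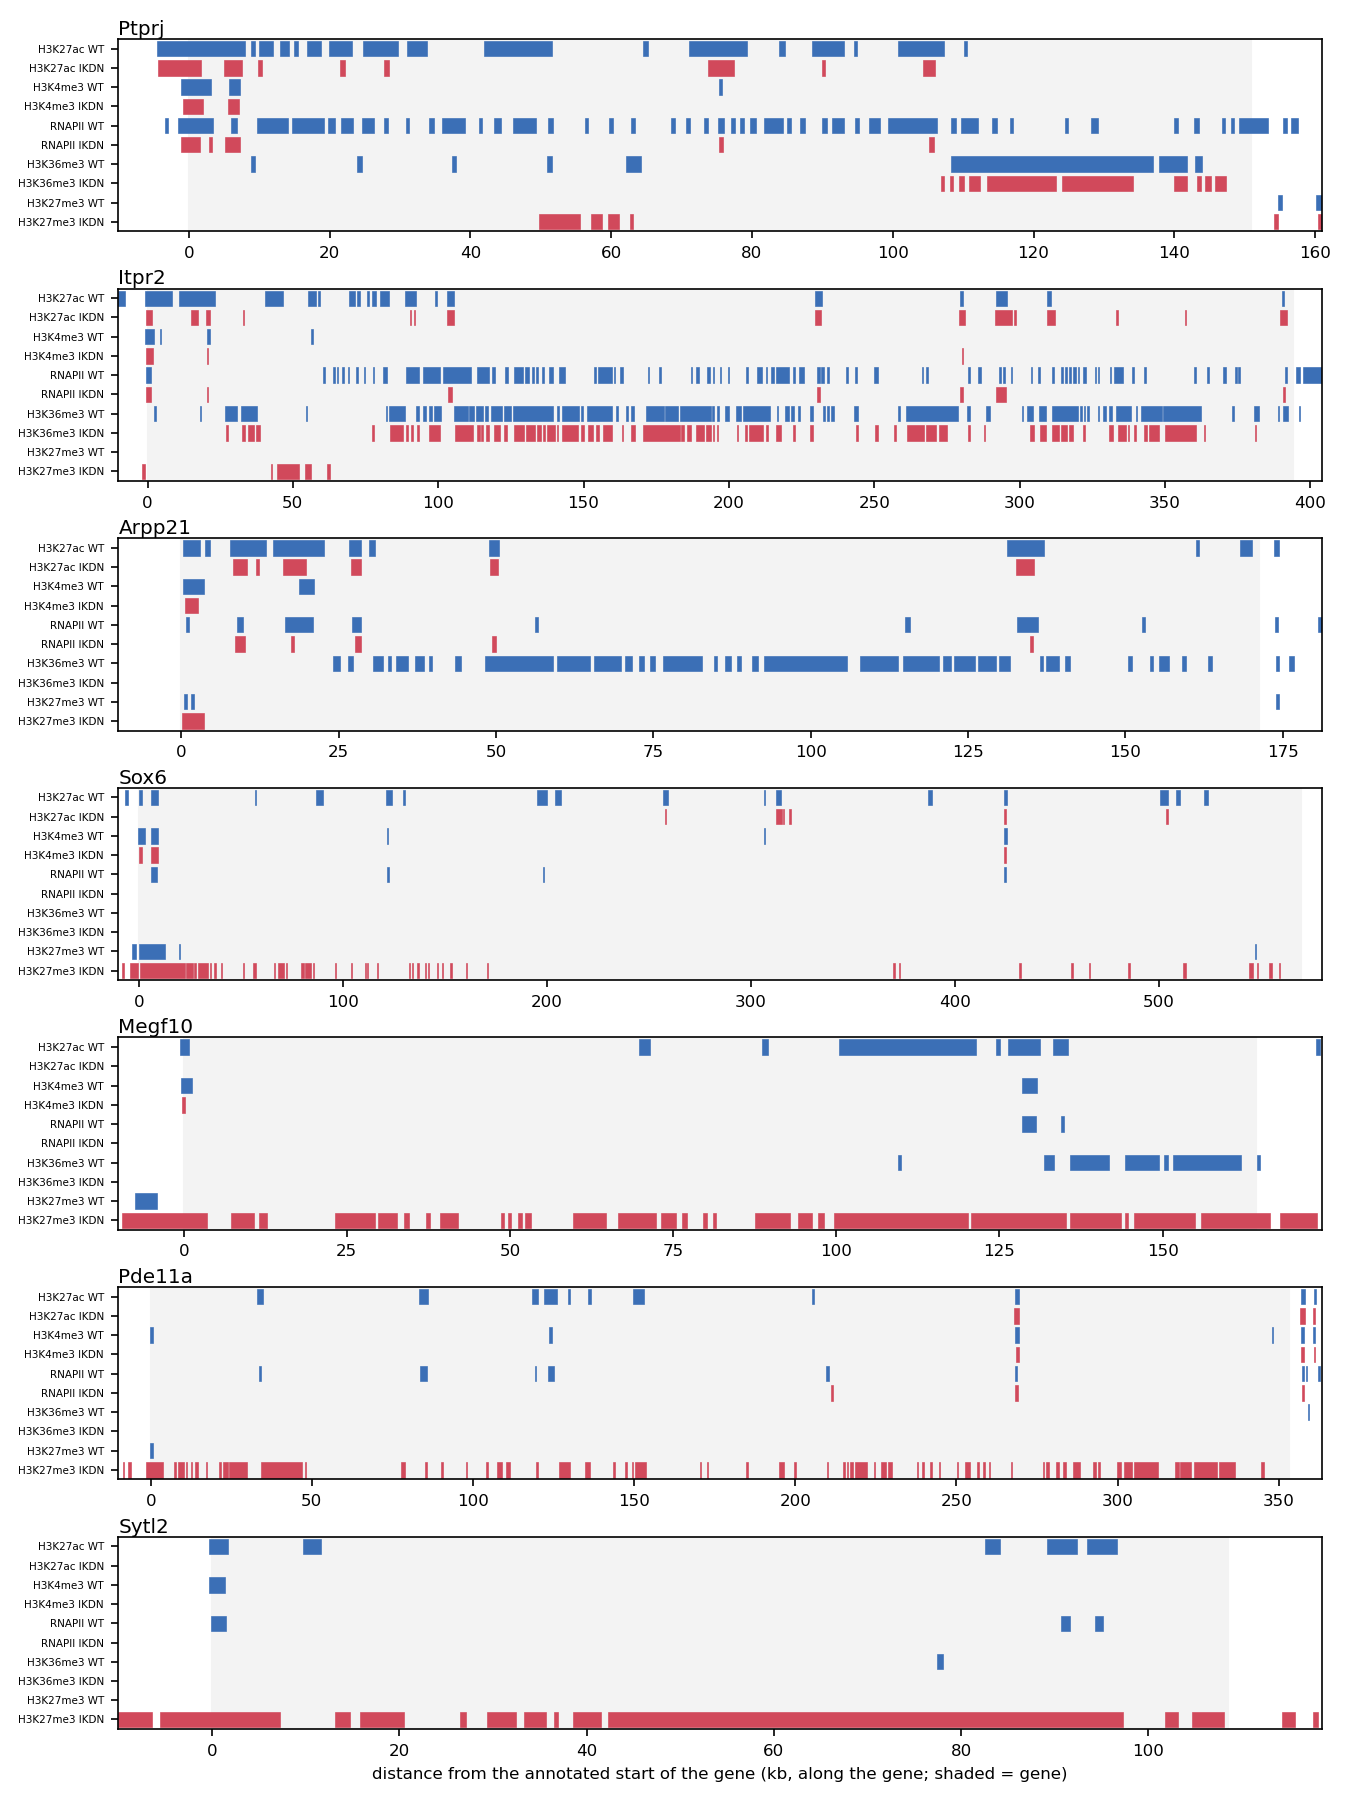
Peaks of 5 targets in WT (blue) and IKDN (red) along each gene by coordinates, with the distance from the annotated start in kb on the x axis, 10 kb on each side and the gene shaded. H3K27me3 in IKDN runs over most of Megf10 and Sytl2 (68.4% and 73.2% of the drawn length), over 28% at Pde11a and 11.7% at Sox6, and over 6.3% or less at Ptprj, Itpr2 and Arpp21.

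The naming also hides part of Arpp21. Its body held 83.76 kb of WT H3K36me3 by coordinates and none in IKDN, and the WT peaks run across Mir128-2 (chr9:112118636-112118711, minus strand), with a peak of 5.74 kb over it. The mature products are printed because the mark that goes with transcription through their host was absent in IKDN; the seed, bases 2 to 8, is in capitals, and U stands for uracil.
mmu-miR-128-3p: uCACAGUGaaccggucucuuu
mmu-miR-128-2-5p: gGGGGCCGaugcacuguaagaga
The 3p sequence is the same from Mir128-1, which lies in R3hdm1, a relative of Arpp21; R3hdm1 had 3.11 kb of H3K36me3 in the WT list and 3.96 kb in the IKDN list. The microRNAs themselves were not measured. An acetylated region in the 3' part of Arpp21 was 5.85 kb wide in WT (score 372.2) and 2.98 kb in IKDN (55.1).

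At its start sites Arpp21 had another pattern than the other genes. The internal start at chr9:112217351, whose window is printed above, had H3K4me3 in WT (2.40 kb, score 105.3) and none in IKDN, yet in IKDN it lay under H3K27ac (56.3, against 427.3 in WT) and H3K4me1 (603.9, against 594.0). The upstream start, at chr9:112234841, had H3K4me3 in both, with a score of 392.0 in WT and 97.4 in IKDN. The WT peak there is named for the noncoding gene 2900079G21Rik and the IKDN peak for Arpp21, so the nearly equal lengths by name, 2.40 and 2.11 kb, belong to different start sites. H3K27me3 at the upstream start was 2 peaks of 0.50 kb in WT and a 3.59 kb peak in IKDN (score 118.6).

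Within 2500 bp of an annotated start, H3K4me3 was found at 7 of 7 genes in WT and 5 in IKDN, H3K27ac at 6 and 3, RNAPII at 5 and 3, and H3K27me3 at 3 and 6. Read in the same way over 2282 genes of at least 100 kb, the shares in WT and IKDN were 66.7% and 63.1% for H3K4me3, 53.6% and 53.5% for H3K27ac, 46.6% and 49.2% for RNAPII, and 48.2% and 46.8% for H3K27me3. The H3K27ac counts follow the choice of the genes. Ptprj, Itpr2 and Arpp21 were the 3 with H3K27ac and RNAPII there in IKDN. At Arpp21 both lay at internal starts only, with low RNAPII scores of 9.93 and 7.04 (ranks 30218 and 37793 of 52467). Its upstream start, at chr9:112234841, had H3K27ac in WT (113.0) and neither mark in IKDN. The start of Sytl2 had WT H3K4me3 (120.8), H3K27ac (50.7) and RNAPII (32.5), and in IKDN H3K27me3 (410.6) with a small H3K4me2 peak (17.2). Megf10 went from H3K4me3 of 121.4 to 12.2, with H3K27me3 of 303.2 in IKDN and none in WT. Sox6 carried H3K4me3 and H3K27me3 together in both genotypes: at chr7:116031047 the scores were 494.5 and 385.2 in WT, and 134.8 and 936.8 in IKDN. Pde11a had a weak pair of these marks in WT (13.2 and 11.3) and H3K27me3 alone in IKDN (141.2). Scores come from separate lists with their own depth and are set side by side as the authors gave them.

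The 77 WT H3K27ac peaks of the 7 genes were followed into IKDN. Of them 64 are intronic, 8 intergenic, 2 at a promoter, 2 in a 5' UTR and 1 at a transcript end, by the deposited annotation. An IKDN H3K27ac peak overlapped 23, and 54 (70.1%) had none, against 32.1% of all 33361 WT peaks; the rule fixes this direction. In IKDN 21 of the 77 (27.3%) lay under H3K27me3, 15 (19.5%) under H3K4me1 or H3K4me2 alone, and 18 (23.4%) under none of the 4 marks. Over all WT H3K27ac peaks these shares were 3.0%, 11.6% and 17.5%. Among the lost peaks, H3K27me3 overlapped 38.9% at the 7 genes (exact 95% interval 25.9 to 53.1) and 9.4% of all; the intervals cover counting error only, and peaks of 1 gene share a domain. Lost peaks of the 7 genes had a median width of 1.64 kb, against 0.65 kb for all lost peaks, and wider peaks meet more overlaps.

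**Figure D4:**
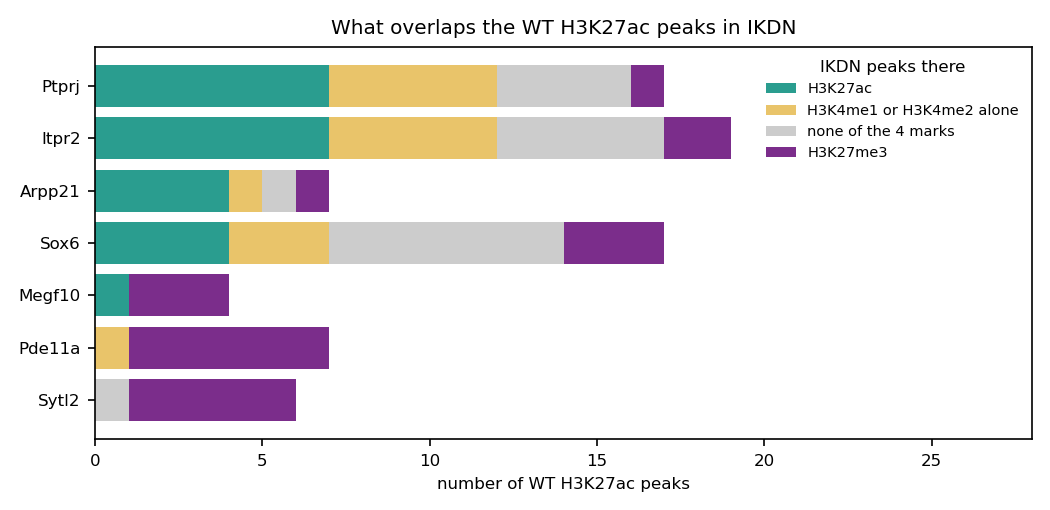
Number of WT H3K27ac peaks of each gene (x axis) by what overlapped them in IKDN: H3K27ac, H3K4me1 or H3K4me2 alone, none of the 4 marks, or H3K27me3. H3K27me3 overlapped, by at least 1 bp, 6 of 7 peaks at Pde11a, 5 of 6 at Sytl2 and 3 of 4 at Megf10, against 1 of 17 at Ptprj and 2 of 19 at Itpr2.

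What replaced H3K27ac thus differed from gene to gene. Pde11a, Sytl2 and Megf10 had H3K27me3 over at least 1 bp of 14 of 17 WT peaks. Ptprj, Itpr2 and Arpp21 had it over 4 of 43, and Sox6 over 3 of 17, with 7 of 17 under none of the marks. Counted by length, 20.7% of the acetylated 216.0 kb was still acetylated, 15.6% was under H3K27me3 and 54.1% under H3K4me1. H3K4me1 covered 86.3% of the WT H3K27ac length at Arpp21 and 76.1% at Ptprj, and none at Pde11a and Sytl2. H3K27me3 covered 84.6% of that length at Sytl2, 70.2% at Megf10 and 37.4% at Pde11a. At the other genes it covered from 3.0% (Ptprj) to 13.0% (Sox6). The Pde11a peak with the highest score (203.3) had no H3K27me3 on it in IKDN. Of the length of the 23 kept peaks 40.4% was still acetylated, against 79.9% over all 22648 kept WT peaks; the choice of the genes bears on this value too.

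Of the 30 IKDN H3K27ac peaks named for these genes, 27 overlapped a WT peak, and 3 (10%) did not, 2 at Sox6 and 1 at Itpr2, against 40.4% of all 38547 IKDN peaks. By coordinates 6 of 38 (15.8%) did not, 4 of them at Itpr2, where peaks of other names lie inside the gene. The choice of the genes bears on these shares. A Sox6 intron held a peak that was larger in IKDN than in WT, 2.70 kb with a score of 62.6 against 2.29 kb with 44.4, and beside it, at chr7:115724469-115724699, an IRF4 peak with a score of 310.7 (rank 103 of 29589) that scored 39.3 in WT. At the Sox6 start at chr7:116031047, H3K27me3 covered the whole 5.0 kb window in both genotypes. In the 3' part of Itpr2 a WT peak of 1.25 kb (28.1) was 2.22 kb (73.5) in IKDN.

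Ikaros had been on these genes in WT. The WT Ikaros list has 91 peaks named for them, from 8 at Pde11a to 22 at Itpr2, and 83.5% lay in WT H3K27ac against 62.6% of all Ikaros peaks. Ptprj had one at rank 168 of 42655 (score 62.8), 6.3 kb inside the gene. In IKDN 29.7% of the positions of these 91 peaks lay in H3K27ac (57.2% over all) and 27.5% in H3K27me3 (4.4% over all). The rule that chose the genes fixes the direction of both H3K27ac shares, so nothing is read from them. Of the 77 WT H3K27ac peaks 64.9% held an Ikaros peak and 58.4% a PAX5 peak, against 59.8% and 61.1% of all, so these shares were near the background. At the peaks that were lost they were 53.7% (39.6 to 67.4) and 46.3% (32.6 to 60.4), against 31.4% and 32.4% of all lost peaks. Aiolos had 3 WT peaks by name, all at Ptprj. In the 3' part of Arpp21 a WT Aiolos peak (score 3.32) and WT Ikaros peaks carry the name Mir128-2. The highest of these Ikaros peaks scored 28.1 (rank 1628).

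The other B cell regulators were on fewer of the 77 peaks. IRF4 was on 31.2% and EBF1 on 28.6%, near their 31.9% and 24.8% over all WT H3K27ac peaks. ETS1, whose WT list lacks chromosome 2, was on 34% of the 53 peaks of the 5 genes elsewhere (interval 21.5 to 48.3), against 43.8% of all. E2A could be read in WT at Ptprj (6 of 17 peaks), Pde11a (3 of 7) and Megf10 (3 of 4); its WT list ends on chromosome 2 at 157.1 Mb and has nothing on the chromosomes of the other 4 genes. EBF1 and E2A went from 7 and 5 peaks at Megf10 to none in IKDN. The labels give the WT and IKDN E2A lists different antibody numbers, and the part of that in the E2A difference was not tested. PAX5, the factor that holds B cell identity, went from 12 to 5 peaks at Sytl2, 12 to 3 at Pde11a and 11 to 5 at Megf10, was at 30 and 30 at Itpr2 and 27 and 25 at Sox6, and went from 9 to 13 at Ptprj. At the 6 genes with complete lists 60.4% of WT PAX5 peaks were shared with IKDN, against 80.7% of all, and EBF1 shared 52.3% against 74.7%.

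The kept elements were read against the IKDN factor lists. Ptprj and Itpr2 had 7 kept peaks each, Arpp21 and Sox6 4 each, Megf10 1, and Pde11a and Sytl2 0. Of the 23 kept WT H3K27ac peaks ETS1 was on 78.3% (71.0% of all kept), IRF4 on 69.6% (60.8%), E2A on 60.9% (33.9%) and EBF1 on 47.8% (32.9%), and PAX5 was on 78.9% of the 19 it could be read on (79.2%). LHX2, a LIM homeodomain factor, and LMO2, its LIM-only partner in progenitor complexes, have IKDN lists alone, and TEAD1 is the DNA-binding partner of YAP. LHX2 overlapped 17 of 23 kept WT H3K27ac peaks (73.9%, interval 51.6 to 89.8; 41.8% of all kept), LMO2 15 (65.2%, 42.7 to 83.6; 32.7%) and TEAD1 17 (73.9%, 51.6 to 89.8; 59.8%). The labels give LHX2 the antibody number that WT E2A and IKDN ETS1 also have, and the part of that in the LHX2 shares was not tested. On the 54 lost peaks LHX2, LMO2 and TEAD1 were on 11.1%, 5.6% and 13.0%, near the 8.9%, 6.0% and 11.9% of all lost peaks. RNAPII was on none of the 54 (exact upper bound 6.6%) and on 12.1% of all lost peaks. Kept peaks of the 7 genes were also wider, with a median of 3.90 kb against 1.96 kb. By name TEAD1 peaks went from 5 to 13 at Ptprj, 10 to 15 at Itpr2, 4 to 16 at Sox6 and 0 to 3 at Arpp21. They went from 5 to 1 at Sytl2 and 4 to 3 at Megf10, with 1 in both at Pde11a. Inside Arpp21 a WT TEAD1 peak (chr9:112225081-112225257, score 8.41) and further IKDN ones carry other names. The whole TEAD1 list went from 33532 to 47764 peaks, and its peaks were cut wider. At the Ptprj start TEAD1 scored 13.8 in WT and 110.9 in IKDN, LMO2 scored 67.1 and LHX2 19.3.

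**Figure D5:**
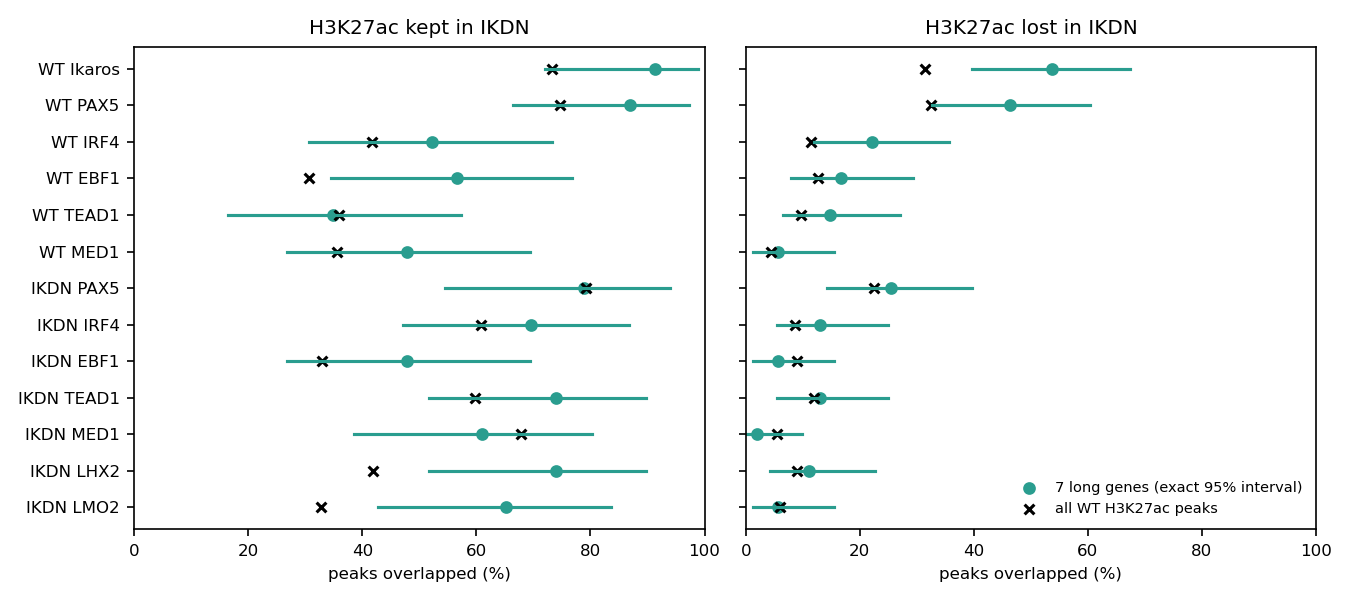
Share of WT H3K27ac peaks (%, x axis) overlapped by each factor list (y axis), for peaks with H3K27ac in IKDN (left) and without (right); filled points with exact 95% intervals are the 7 genes, crosses all WT H3K27ac peaks. LHX2 and LMO2 sit at 73.9% and 65.2% of kept peaks of the 7 genes, and WT Ikaros at 53.7% of the lost ones. By median width, peaks of the 7 genes were wider than all peaks in both panels. Pde11a and Sytl2 had no kept peak, so the left panel holds none of theirs.

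MED1 went against the other active marks at 3 genes. Ptprj went from 4.96 to 10.06 kb, Itpr2 from 3.12 to 6.06 kb, and Arpp21 from 0.50 to 3.67 kb. Of all genes 43.1% were called higher for MED1 and 2.94% lower, and the IKDN list is larger (24239 against 12105 peaks), so 3 of the 6 genes with a peak is near the background. Pde11a, with 1.64 and 0 kb, was the gene called lower.

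Whether H3K27me3 went past the gene ends was read in the 50 kb beyond each end. WT and IKDN had, in that order, 6.39 and 26.51 kb on the 5' side of Megf10, and 0 and 40.58 kb on its 3' side. At Sytl2 these values were 0 and 30.41 kb, and 0 and 19.87 kb. Pde11a had 0.28 and 9.55 kb on the 5' side and 3.0 and 2.35 kb on the 3' side, so there the mark went past the 5' end. At the other genes the values were within 1 kb of each other except 5' of Itpr2 (0 and 3.88 kb).

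The nearest protein-coding gene on each side that does not overlap the member was read by name as well. The gaps ran from 3.8 kb (beside Pde11a) to 1415.5 kb (beside Arpp21). Of the 14 neighbours 10 had H3K27ac and 4 of these were called lower and 2 higher, and 10 had H3K27me3 with 6 higher and 3 lower (backgrounds as above, 16.8% and 21.9%, 29.6% and 33.3%). Part of these peaks lies inside the 7 genes: 28.84 of the 33.15 kb of WT H3K27ac named Prrc1 lies in Megf10, and all 53.86 kb of IKDN H3K27me3 named Ttc30a1 in Pde11a. Without peaks that touch the 7 genes, 4 neighbours were lower and 2 higher for H3K27ac, and 5 higher and 3 lower for H3K27me3. Prrc1 then had 4.32 and 1.22 kb of H3K27ac, and 0.50 and 38.47 kb of H3K27me3. Ccdc83 and Ccdc89, on either side of Sytl2, had 22.73 and 18.71 kb of H3K27me3 in IKDN and 1.18 and 0 in WT. Nup160, 96.5 kb from Ptprj, had 29.08 and 9.95 kb of H3K27ac, no H3K27me3, and more H3K36me3 in IKDN (58.54 against 35.74 kb). Sspn, 143.1 kb from Itpr2, and Insc, 620.5 kb from Sox6, had more H3K27ac in IKDN (4.24 to 10.43 kb and 0 to 4.57 kb).

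The families of the 7 genes did not move as a block. Of 56 listed paralogues 39 had H3K27ac, 7 of them lower and 12 higher (16.8% and 21.9% of all genes with a peak). H3K27me3 was on 41, 23 of them higher and 8 lower (29.6% and 33.3%), so higher calls were more frequent among them than over all genes, without a test. Pde8a, a cyclic AMP phosphodiesterase, went from 20.42 to 10.40 kb of H3K27ac, while its close relative Pde8b had 0.77 and 29.57 kb, with 50.99 and 1.69 kb of H3K27me3. Sytl3, another Rab27 effector, had 10.08 and 2.70 kb of H3K27ac and 2.0 and 16.84 kb of H3K27me3, but its RNAPII went from 0 to 8.90 kb, where that of Sytl2 was lost. The other lower ones were Ptprm, Ptprs, Pde3b, Pde4c and Sytl1. The other higher ones were Ptpra, Ptprd, Ptprg, Megf11, Pear1, Megf6, Pde1a, Pde2a, Pde4d, Pde5a and Pde7a, with Pde2a at 0.94 and 11.08 kb and Pde1a at 0 and 9.06 kb. By covered length, none of the listed paralogues of Itpr2, Arpp21 and Sox6 was called for H3K27ac.

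Other genes of at least 100 kb were ranked by how closely their profile followed the mean of the 7. A profile holds log2 ratios of covered length, IKDN over WT with 1000 bp added to each, for 12 targets. Their lists are complete except WT IRF4 and WT MED1 on chromosome Y. H3K27ac and H3K36me3, which chose the 7, are among the 12, so the choice bears on these correlations. The closest of 1845 genes were Lpar1 (Pearson correlation 0.973), Pip5k1b (0.956), Lmo7 (0.949), Synj2 (0.946) and Cacnb2 (0.945), as a description over targets that come from the same cells. Cacnb2, a calcium channel subunit, had 21.82 kb of H3K27ac and 72.66 kb of RNAPII in WT and none of either in IKDN. Lpar1, a lysophosphatidic acid receptor, had 13.73 and 4.81 kb of H3K27ac. Among the 7 themselves the profiles ran from a correlation of -0.01 (Arpp21 with Pde11a) to 0.99 (Ptprj with Itpr2), and Arpp21 was in the 6 lowest of the 21 pairs.

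The cultures grow on stroma, and markers of other cell types were read beside these results. Of 11 B lineage markers 10 had H3K27ac in WT and 8 in IKDN (200.5 and 120.1 kb in sum; Vpreb1 was at 0 in both, Cd79a and Rag1 in IKDN). Of 10 stromal markers 7 had H3K27ac in WT and 4 in IKDN, with sums of 20.8 and 21.5 kb, and Col1a2, Lum and Dcn at 0 in both. H3K4me3 stood on 7 stromal markers in WT and 3 in IKDN (27.1 and 2.9 kb), and H3K27me3 covered 85.9 and 408.0 kb of them. For H3K4me3 and H3K27me3 the stromal markers thus moved as Megf10, Pde11a, Sytl2 and Sox6 did, while their summed H3K27ac was nearly level, and their part in the result was not tested. Longer H3K27me3 was not particular to them: muscle and neural markers had 162.8 and 328.3 kb, erythroid 30.7 and 37.4 kb, and myeloid 25.0 and 28.5 kb. B lineage markers had 54.5 and 65.2 kb of H3K27me3, and 67.5 and 58.0 kb of H3K4me3. The whole H3K27me3 list covered 125.0 Mb in WT and 146.8 Mb in IKDN. At muscle and neural, erythroid and myeloid markers, in that order, H3K4me3 went from 1.6 to 2.6, 10.7 to 6.3 and 3.9 to 4.9 kb. H3K27ac went from 0.8 to 18.1, 12.1 to 7.1 and 13.5 to 21.4 kb. In a bulk library, a mark on fewer cells and less mark per cell cannot be told apart.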

How the data were processed

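Chromatin immunoprecipitation was followed by sequencing in 1 library per genotype and target, with 33 peak lists and 2 input samples that were not analysed here. Per the submitters' processing notes, bcl2fastq 1.8.3, BWA, STAR and HOMER were used, with the builds mm10 and mm9; the peak caller's settings and read depth are not given in the sources used here. The authors deposited 1 annotated peak list per library, with a position, a peak score, the nearest gene name, an annotation and the distance to the start site (per the file headers). The deposited score ranks peaks within a list and is not scaled between lists. Of the start sites that peaks name, 99.5% lay within 1000 bp of that gene in RefSeq GRCm38, so coordinates are those of mm10.

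From these lists the merged length of peaks per gene name was computed with Python 3.11.15 and pandas 2.3.3, and a gene was called lower or higher at a difference of at least 1000 bp and 1.5 times. Overlap means at least 1 shared bp. Exact Clopper-Pearson intervals (95%) cover counting error only, and no test was run. The interval and call functions were tested on simulated data. The marks have peaks of variable width; factor lists have a fixed width that differs between genotypes, so factors are given as numbers of peaks. A list was not used on a chromosome where it stops over 10 Mb short of the longest-reaching list. This concerns WT E2A (no peak on chromosomes 3 to 9, X and Y). It also concerns WT ETS1 (none on chromosome 2) and IKDN PAX5 (ends at 32.6 Mb on chromosome 9). WT E2A also ends early on chromosome 2, at 157.1 Mb. As an exception it was read at Ptprj and Pde11a, which it reaches, without a call. The labels give the same antibody catalogue number for several targets, namely IKDN E2A, IRF4 and PAX5, then WT E2A, IKDN ETS1 and LHX2, and last H3K4me1 and IKDN H3K4me3, so each target is as labelled. The 7 genes, the paralogue and marker lists and the alternatives were chosen with earlier results of these data known. Genes named in the text are the 7, paralogues called for H3K27ac, the nearest gene on each side, and the 5 long genes with the closest profile; R3hdm1 was added after its values were seen because it hosts Mir128-1, and 2900079G21Rik and Mir128-2 because peaks in Arpp21 carry their names.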

Additional observations from a re-analysis of the deposited data

How the results depend on the processing

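Alternatives were other ways to measure a gene or to meet a peak: coordinates, numbers of peaks, summed scores, a stricter call, the top-scored 50% of each list, equal numbers of peaks, a 1000 bp window, or 50% of the peak covered. Of 115 recomputed counts and shares 94 stayed within 1.5 times or within their interval. Of 156 recomputed gene values 4 had the other sign, none of them a value called in the first place: by coordinates Arpp21 H3K27me3 (-0.50 to 2.09 kb) and Megf10 MED1 (0.78 to -2.30 kb), in the top-scored 50% Arpp21 H3K4me2 (-1.15 to 0.45 kb), and with equal numbers of peaks Sox6 MED1 (0.65 to -1.13 kb). H3K27ac was lower at 6 or 7 genes, RNAPII at 5 to 7 and H3K27me3 higher at 6 or 7 under each of them.

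With at least 2000 bp and 3 times, H3K4me1 and H3K4me2 were lower at 3 genes each, H3K4me3 at 2, H3K36me3 at 1, and MED1 was higher at 1; 3 paralogues and 2 neighbours were lower for H3K27ac, and 13 paralogues higher for H3K27me3. By number of peaks H3K4me3 was lower at 3 genes and H3K36me3 at 1, H3K27ac at 4 paralogues and 2 neighbours, and H3K27me3 was higher at 15 paralogues. By summed score H3K36me3 was lower at 5 genes and H3K27ac at 11 paralogues, and by coordinates at 12 paralogues. In the top-scored 50% H3K4me3 was lower at 1 gene and H3K27ac at 2 neighbours, and Ikaros was on 76.3% and EBF1 on 18.4% of 38 peaks. With 50% of a WT peak to be covered, 88.3% had no IKDN H3K27ac. Except where fewer peaks were used, the cause was not tested. E2A, with the stretch of chromosome 2 that its list reaches, was on 42.9% of 28 peaks, an alternative chosen after seeing the data, as was leaving out neighbours' peaks that touch the 7 genes. Covering 50% of a peak was not run for factors, whose peaks are too narrow, nor the top-scored 50% for E2A, which left no peak.

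No paired analysis was possible because each genotype has 1 library per target. Read depth is unknown, so an absent peak is one not called at that depth.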
